A study of Rattus norvegicus with 24 samples.

Results

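The oxidant defence of the liver was followed here through 10 genes of the NRF2 pathway and its antioxidant enzymes, taken by Ensembl ID from the 18056 genes of the deposited tables. They were Nfe2l2 (ENSRNOG00000001548), Keap1 (ENSRNOG00000020878), Nqo1 (ENSRNOG00000012772), Hmox1 (ENSRNOG00000014117), Gclc (ENSRNOG00000006302), Gclm (ENSRNOG00000013409), Txnrd1 (ENSRNOG00000009088), Sod1 (ENSRNOG00000002115), Sod2 (ENSRNOG00000019048) and Cat (ENSRNOG00000008364). All 10 IDs were in both tables and all 10 passed the filter on low counts, with between 71 counts (Nqo1) and 187680 counts (Cat) in a library. The tables give IDs without names, and the symbols are those paired with the IDs when the genes were chosen.

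The livers came from 24 rats killed at about postnatal day 48, in 4 groups of 6: males and females whose dams had breathed filtered air, and males and females whose dams had breathed ozone. The maternal exposure took place on gestation days 5 and 6, for 4 hours with filtered air or 0.8 ppm ozone, and 12 dams were used for either. After birth each of the 24 rats inhaled ozone weekly from week 5 (0.4 ppm) through weeks 6 and 7 (0.8 ppm), so every difference below is between animals that had all breathed ozone after birth. Strain, dam and litter of an animal are not stated in the labels, and littermates within a group would make the p-values too small.

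NRF2, the protein of Nfe2l2, is a transcription factor that KEAP1 holds in the cytoplasm and passes on for degradation. Oxidants and electrophiles modify KEAP1, after which NRF2 builds up, enters the nucleus and binds with small MAF proteins to antioxidant response elements. This control acts largely on the protein, so the mRNA of Nfe2l2 is not a measure of NRF2 activity. In the liver the pathway is known for glutathione synthesis and for the detoxification of quinones and drugs, and its usual readouts are Nqo1, Hmox1, Gclc, Gclm and Txnrd1. Superoxide dismutases and catalase clear superoxide and hydrogen peroxide, and are only partly under NRF2.

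The sequences just before the starts of these genes were searched for the letters of the NRF2 element. The core of the element was searched as TGACNNNGC on both strands in the 250 bases before each start in the RefSeq promoter table (build GRCr8), where 9 of the 10 genes were matched by symbol with 10 promoters. It was found in 3 of these 10 promoters, those of Gclm, Txnrd1 (1 of its 2 starts) and Sod2, against 10.1% of all 33469 promoters. Its wider form TGANNNNGC, which contains every match of the first, was found in 5 of the 10 (Keap1 and Nqo1 in addition), against 34.7% of all. The promoters with the core are printed with it in capitals. Those of Sod1 and Cat follow because these genes had the largest fall and the largest rise in males. The regions are chr2:213031885-213032134 (plus strand), chr7:22755905-22756154 (minus strand), chr1:50050169-50050418 (minus strand), chr11:42942573-42942822 (plus strand) and chr3:110329527-110329776 (minus strand), each 5′ to 3′ along the gene.
Gclm: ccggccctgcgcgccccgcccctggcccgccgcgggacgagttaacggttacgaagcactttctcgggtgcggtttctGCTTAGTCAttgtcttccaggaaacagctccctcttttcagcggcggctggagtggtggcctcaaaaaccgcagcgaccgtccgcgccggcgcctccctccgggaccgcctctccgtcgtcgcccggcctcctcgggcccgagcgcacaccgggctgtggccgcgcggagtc
Txnrd1: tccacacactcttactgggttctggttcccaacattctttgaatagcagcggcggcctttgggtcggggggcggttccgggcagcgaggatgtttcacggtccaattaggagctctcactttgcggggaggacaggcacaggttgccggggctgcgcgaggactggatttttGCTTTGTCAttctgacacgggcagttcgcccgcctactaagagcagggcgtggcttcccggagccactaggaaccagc
Sod2: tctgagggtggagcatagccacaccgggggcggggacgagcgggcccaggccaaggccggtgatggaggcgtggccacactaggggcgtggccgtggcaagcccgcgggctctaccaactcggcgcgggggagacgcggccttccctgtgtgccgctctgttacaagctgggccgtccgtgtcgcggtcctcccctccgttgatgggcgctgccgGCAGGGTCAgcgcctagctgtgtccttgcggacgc
Sod1: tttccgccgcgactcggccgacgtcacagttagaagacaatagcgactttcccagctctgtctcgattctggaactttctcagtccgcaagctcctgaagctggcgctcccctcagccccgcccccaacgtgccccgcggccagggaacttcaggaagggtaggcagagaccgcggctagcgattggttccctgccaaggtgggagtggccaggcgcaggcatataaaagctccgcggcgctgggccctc
Cat: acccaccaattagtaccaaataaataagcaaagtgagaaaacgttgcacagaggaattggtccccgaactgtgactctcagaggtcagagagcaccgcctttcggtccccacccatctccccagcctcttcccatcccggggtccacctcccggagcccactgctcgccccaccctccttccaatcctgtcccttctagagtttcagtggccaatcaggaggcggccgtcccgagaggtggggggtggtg
In Gclm the core reads GCTTAGTCA, which is TGACTAAGC on the other strand, and begins 172 bases before the start. In Txnrd1 it reads GCTTTGTCA (TGACAAAGC on the other strand), 78 bases before the start, and in Sod2 GCAGGGTCA (TGACCCTGC), 35 bases before it. A match describes these letters only, and its absence says nothing of elements outside this window.

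Library totals ran from 8462290 to 14564662 estimated counts, apart from replicate 6 of the females with ozone-exposed dams, which had 36232072. Levels are given as CPM, a gene's count scaled to a common library total with TMM (a correction for differences in RNA composition between libraries). The names of the libraries come in 2 forms, here called library set 1 and library set 2. Both groups with air-exposed dams have 3 libraries of either form, and both groups with ozone-exposed dams have 2 of set 1 and 4 of set 2. The numbers of the rats run in separate ranges in the 4 groups (15 to 23, 37 to 48, 63 to 72 and 87 to 97), so an effect of that order and an effect of the group cannot be told apart. In whole liver, fewer cells of a type and less RNA per cell cannot be told apart either. Markers of liver cell types were not analysed here, because IDs and symbols could not be paired beyond these 10 genes.

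In males, maternal ozone went with higher Cat and Gclc and lower Sod1 and Keap1. These 4 of the 10 genes passed the test (edgeR quasi-likelihood test, adjusted p under 0.05), 2 in each direction, against 21.3% of all 12541 genes tested (10.3% higher and 11% lower). In females 0 of the 10 genes passed, against 0.271% of 12538 genes (0.239% higher and 0.0319% lower), although 5 of the 10 had an unadjusted p under 0.05 (16.0% of all genes). DESeq2 called 2 of the 10 in females, Hmox1 and Sod1, among 332 genes it called in all, and limma-voom called 0 of the 10 among 42 genes in all, against 34 genes with edgeR. The male share of 21.3% stands for 2670 called genes, which were 1684 without air replicate 5 and 1758 without air replicate 4. The 34 genes called in females were 0 without air replicate 6, 135 without air replicate 1, 64 without ozone replicate 6, and 14 to 20 without air replicate 2, 4 or 5 or ozone replicate 1, 3 or 4.

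**Figure D1:**
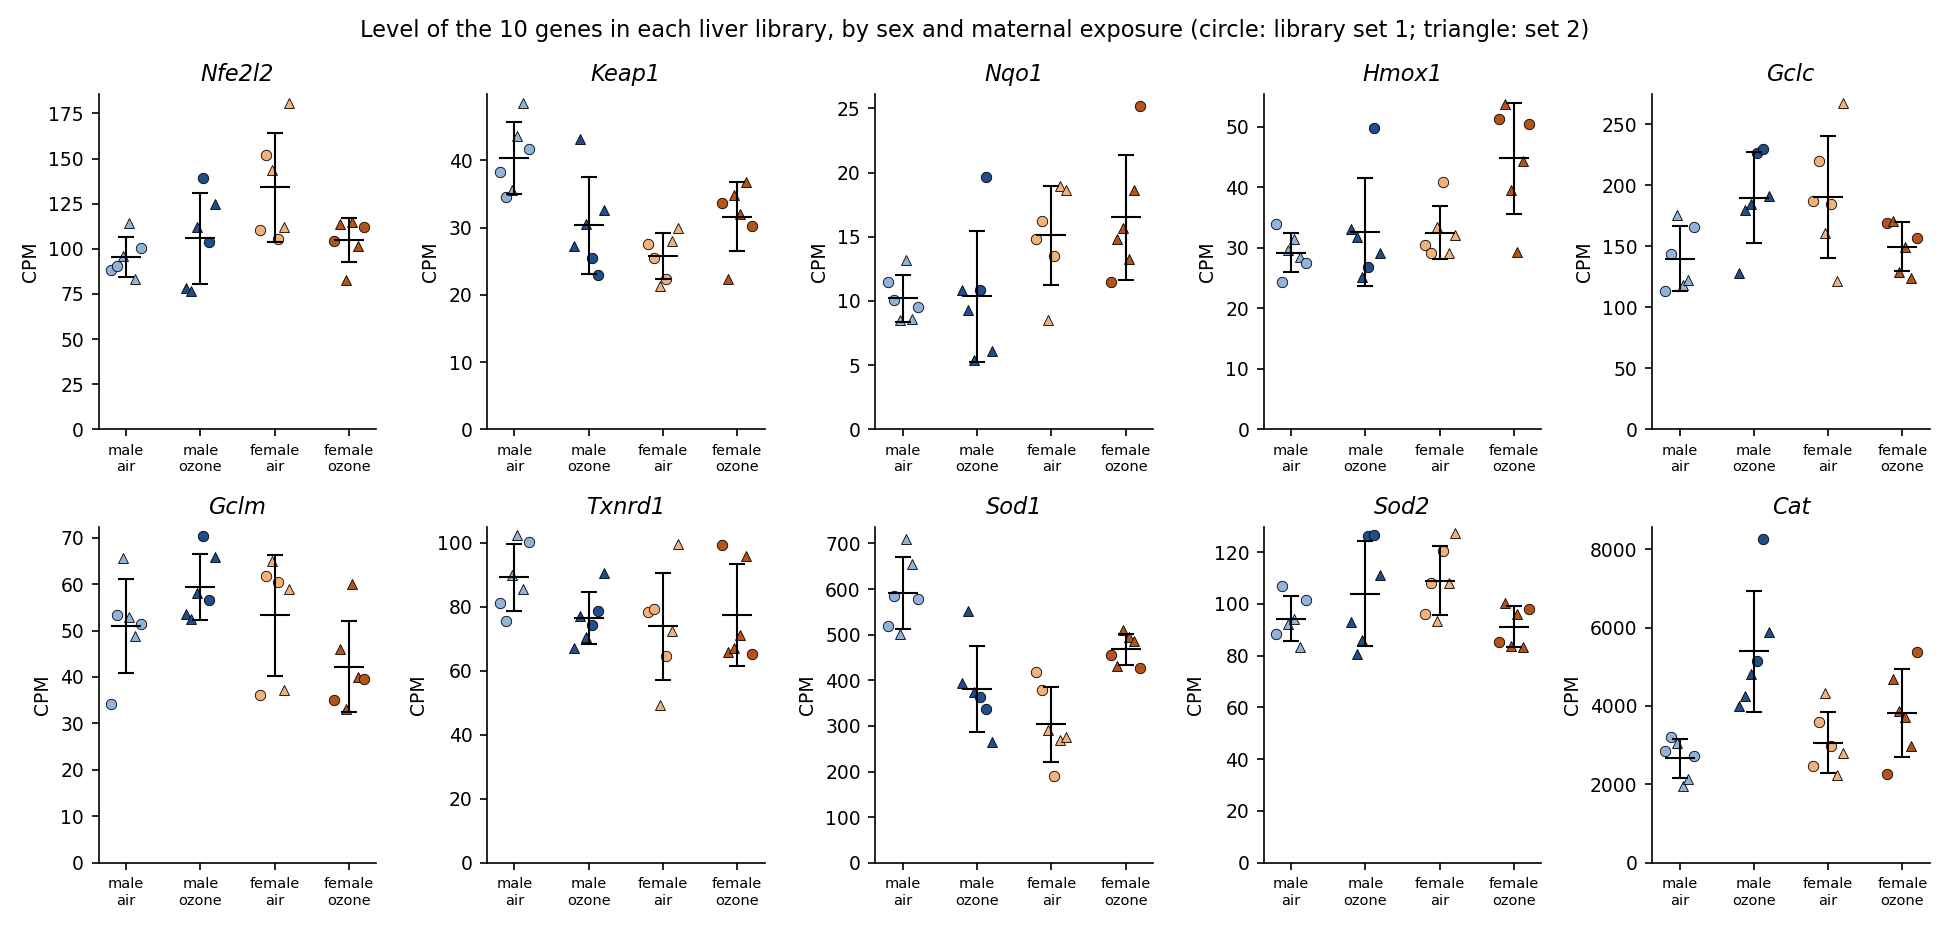
CPM of each of the 10 genes (y axis, from 0) in the 4 groups (x axis, sex and maternal exposure), with 1 point per library, circles for library set 1 and triangles for set 2, and bars for the mean ± SD of 6 libraries. In males the points of Cat from ozone-exposed dams all lie above those from air-exposed dams, and the groups of Sod1 lie in opposite order in males and females.

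Keap1, the repressor of NRF2, fell in males. It ran from 34.6 to 48.6 CPM (median 39.9) in males from air-exposed dams and from 22.9 to 43.2 CPM (median 28.9) in males from ozone-exposed dams. Of the 6 males from ozone-exposed dams, 5 lay below every male from an air-exposed dam, and replicate 2 lay among them. The means were 40.4 ± 5.31 and 30.3 ± 7.20 CPM (SD, n = 6 each), with a log2 fold change of -0.47 ± 0.13 SE (edgeR adjusted p = 0.0224). In females Keap1 ran from 21.4 to 30.0 CPM (median 26.6) with air-exposed dams and from 22.3 to 36.8 CPM (median 32.8) with ozone-exposed dams. These ranges overlapped, and the log2 fold change of 0.30 ± 0.13 SE did not pass (edgeR adjusted p = 0.289).

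The maternal difference of Keap1 itself differed between the sexes, by -0.71 ± 0.19 SE on the log2 scale, male minus female (edgeR test of the interaction, adjusted p = 0.00857). Across all 12854 genes 23.3% passed this test (12.1% with a positive and 11.2% with a negative value). The male call was lost without air replicate 5, ozone replicate 4 or ozone replicate 5 (edgeR adjusted p between 0.0541 and 0.0696) and without the library set term (0.0633). Within library set 1 the male log2 fold change was -0.67 (adjusted p = 0.0447) and within set 2 it was -0.33 (0.351), and the interaction was -1.0 (0.0374) and -0.59 (0.211).

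Nfe2l2 did not pass in either sex. Its level ran from 83.5 to 114 CPM (median 93.3) in males from air-exposed dams and from 76.7 to 139 CPM (median 108) in males from ozone-exposed dams. In females it ran from 105 to 181 CPM (median 128) with air-exposed dams and from 82.8 to 115 CPM (median 108) with ozone-exposed dams. The highest group was thus the females from air-exposed dams, at 134 ± 30.0 CPM (SD, n = 6), and the other groups had means of 95.4 to 106 CPM with overlapping ranges. The log2 fold change was 0.16 ± 0.14 SE in males (edgeR adjusted p = 0.448) and -0.35 ± 0.14 SE in females (adjusted p = 0.245). The difference between the sexes, from the joint fit of all 24 libraries, did not pass (0.50 ± 0.21 SE, edgeR interaction, adjusted p = 0.0828). It would pass without male ozone replicate 1 or 2 (adjusted p = 0.0457 and 0.0321).

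Among the NRF2 targets, only Gclc passed in males. Gclc encodes the catalytic subunit of glutamate-cysteine ligase, the rate-limiting enzyme of glutathione synthesis. It ran from 114 to 176 CPM (median 133) in males from air-exposed dams and from 128 to 229 CPM (median 188) in males from ozone-exposed dams, where 5 of the 6 animals lay above every male from an air-exposed dam. The means were 139.9 ± 26.3 and 189.9 ± 37.1 CPM (SD, n = 6 each), with a log2 fold change of 0.46 ± 0.14 SE (edgeR adjusted p = 0.0337).

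In females Gclc ran from 122 to 268 CPM (median 186) with air-exposed dams and from 124 to 171 CPM (median 153) with ozone-exposed dams, and the log2 fold change of -0.31 ± 0.16 SE did not pass (edgeR adjusted p = 0.358). Without air replicate 6, the highest animal, it was -0.11. The maternal difference of Gclc differed between the sexes, by 0.78 ± 0.22 SE (edgeR interaction, adjusted p = 0.0133). The rise in males was lost more often than the other 3 male calls when 1 library was left out. This happened with 8 of the 12 males left out in turn, which were air replicates 1, 2, 4 and 5 and ozone replicates 3, 4, 5 and 6 (edgeR adjusted p between 0.0572 and 0.0850), and without the library set term (0.0525). The log2 fold change was 0.68 within set 1 and 0.32 within set 2, neither of which passed, and the interaction was 0.97 and 0.66 (edgeR adjusted p = 0.0604 and 0.241).

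Gclm, the modifier subunit of the same enzyme and, like Txnrd1 and Sod2, a gene with the core element printed above, did not pass in either sex. Its means in males were 51.0 ± 10.1 CPM with air-exposed dams and 59.5 ± 7.11 CPM with ozone-exposed dams (log2 fold change 0.21 ± 0.13 SE, edgeR adjusted p = 0.275). In females the means were 53.2 ± 13.02 and 42.2 ± 9.84 CPM (SD, n = 6 in every group; -0.35 ± 0.18 SE, adjusted p = 0.363). The signs are those of Gclc in each sex, but the difference between the sexes did not pass for Gclm (0.56 ± 0.23 SE, edgeR adjusted p = 0.0763). It passed without male air replicate 3, female air replicate 1 or 5, or female ozone replicate 4 (edgeR adjusted p between 0.0298 and 0.0483).

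Hmox1 encodes heme oxygenase 1, which breaks down heme and in the liver is prominent in macrophages. In females it ran from 29.1 to 40.9 CPM (median 31.3) with air-exposed dams and from 29.3 to 53.8 CPM (median 47.5) with ozone-exposed dams. Of the females from ozone-exposed dams, 4 of 6 lay above all females from air-exposed dams, and the lowest, replicate 4, lay among them. The log2 fold change of 0.50 ± 0.14 SE did not pass (edgeR adjusted p = 0.120). With DESeq2 it did (adjusted p = 0.0479). In males the means were 29.2 ± 3.28 and 32.7 ± 8.94 CPM (0.17 ± 0.15 SE, edgeR adjusted p = 0.423), with 49.9 CPM in ozone replicate 5. Without that animal the male log2 fold change was -0.0137.

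Nqo1 encodes a quinone reductase that is a standard readout of NRF2, and showed no difference by maternal exposure that passed. The means were 10.2 ± 1.83 and 10.3 ± 5.12 CPM in males (log2 fold change 0.03 ± 0.23 SE, edgeR adjusted p = 0.951) and 15.1 ± 3.87 and 16.5 ± 4.87 CPM in females (0.16 ± 0.21 SE, adjusted p = 0.746). Nqo1 was the most variable of the 10 genes in males from ozone-exposed dams, with a coefficient of variation of 49.5% and a range from 5.38 to 19.6 CPM. The highest of these animals was again replicate 5. Txnrd1, the cytosolic thioredoxin reductase, had means of 89.1 ± 10.5 and 76.3 ± 8.17 CPM in males (-0.23 ± 0.10 SE, edgeR adjusted p = 0.129) and 73.9 ± 16.8 and 77.4 ± 15.8 CPM in females (0.09 ± 0.17 SE, adjusted p = 0.832). It had fractional counts in 18 of the 24 libraries, for which the labels give no rule of division. The other 9 genes had whole counts in every library.

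Among the antioxidant enzymes, Cat and Sod1 had the largest maternal differences of the 10 genes in males. Cat encodes catalase, the peroxisomal enzyme that splits hydrogen peroxide. In males it ran from 1966 to 3217 CPM (median 2791) with air-exposed dams and from 4009 to 8253 CPM (median 4988) with ozone-exposed dams. The 2 groups did not overlap, as in 5.13% of 12854 genes. The means were 2661 ± 503 and 5395 ± 1551 CPM (SD, n = 6 each). The log2 fold change fitted with library set as covariate was 1.07 ± 0.16 SE, a 2.10-fold rise (edgeR adjusted p = 0.000924).

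In males from ozone-exposed dams Cat took 0.539% of all counts, against 0.260% in males from air-exposed dams. The highest animal was once more ozone replicate 5, without which the log2 fold change was 0.95. The call held with each of the 12 males left out in turn. The log2 fold change was 1.18 within library set 1 (edgeR adjusted p = 0.0293) and 1.01 within set 2 (0.0508). In females Cat ran from 2233 to 4329.7 CPM (median 2887) and from 2276 to 5371 CPM (median 3802), with a log2 fold change of 0.33 ± 0.21 SE (edgeR adjusted p = 0.469) that was 0.10 without ozone replicate 6, the deepest library. In the joint fit of all 24 libraries the maternal difference differed between the sexes by 0.70 ± 0.28 SE. This interaction did not pass (edgeR adjusted p = 0.0680, or 0.0493 with DESeq2). It passed in edgeR with a library set term for each sex (0.76, adjusted p = 0.0445), and without female air replicate 1 or female ozone replicate 2 or 6 (adjusted p between 0.0429 and 0.0451).

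Sod1 encodes the cytosolic copper-zinc superoxide dismutase. It fell in males, from 502 to 710.0 CPM (median 581) with air-exposed dams to 266 to 551 CPM (median 369) with ozone-exposed dams, where 5 of the 6 animals lay below every male from an air-exposed dam. The means were 591 ± 79.5 and 381 ± 94.5 CPM (SD, n = 6 each), with a log2 fold change of -0.66 ± 0.16 SE (edgeR adjusted p = 0.00907). The call held with each of the 12 males left out in turn, and the log2 fold change was -0.69 within library set 1 (adjusted p = 0.0435) and -0.63 within set 2 (0.185).

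In females the values of Sod1 lay in the other order, from 190.5 to 419 CPM (median 283) with air-exposed dams to 427 to 511 CPM (median 470.1) with ozone-exposed dams. The 2 groups did not overlap, as in 1.52% of 12854 genes. The female log2 fold change of 0.65 ± 0.17 SE still missed the threshold (edgeR adjusted p = 0.109). It passed with DESeq2 (0.0137) and without air replicate 1 (edgeR, 0.0345). The maternal difference of Sod1 differed between the sexes by -1.25 ± 0.23 SE on the log2 scale (edgeR interaction, adjusted p = 0.000806), the largest such difference among the 10 genes. It was -1.10 within library set 1 (adjusted p = 0.122) and -1.43 within set 2 (0.0214).

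Sod2, the manganese superoxide dismutase of mitochondria, did not pass in either sex. The means were 94.3 ± 8.56 and 104 ± 20.3 CPM in males (log2 fold change 0.17 ± 0.10 SE, edgeR adjusted p = 0.244) and 109 ± 13.2 and 91.2 ± 7.85 CPM in females (-0.25 ± 0.11 SE, adjusted p = 0.285). The difference between the sexes was 0.39 ± 0.15 SE (edgeR adjusted p = 0.0625, or 0.0400 with DESeq2). It passed in edgeR with a library set term for each sex (0.43, adjusted p = 0.0333), and without male ozone replicate 2 or 3, female air replicate 1 or female ozone replicate 2 (adjusted p between 0.0241 and 0.0496).

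**Figure D2:**
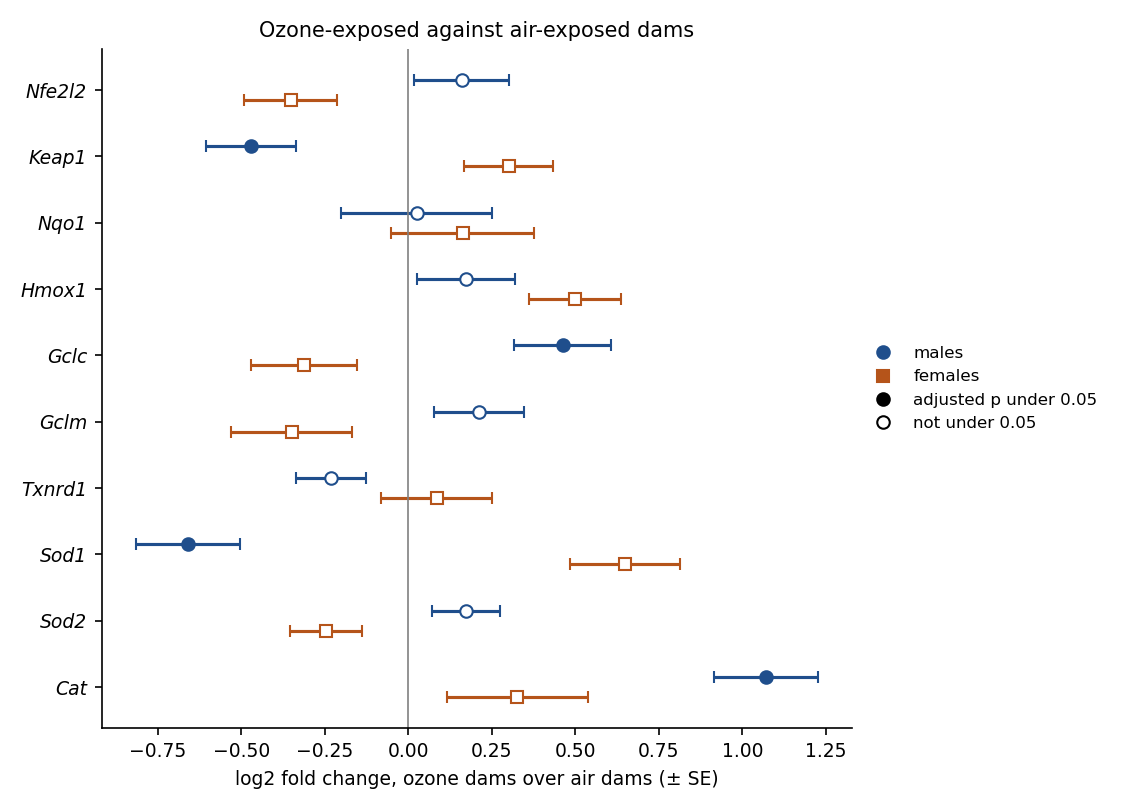
Log2 fold change of each gene with maternal ozone (x axis, ± SE; offspring of ozone-exposed over those of air-exposed dams, 6 against 6 libraries), with circles for males, squares for females and filled symbols for adjusted p under 0.05. Only Keap1, Gclc, Sod1 and Cat in males are filled, and male and female symbols lie on opposite sides of 0 for 7 of the 10 genes.

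As a group the 10 genes showed no shared direction. The median log2 fold change was 0.17 in males and 0.12 in females, and over all genes it was -0.00261 and 0.000355. The median size, regardless of sign, was 0.22 in males (0.26 over all genes) and 0.32 in females (0.18 over all genes). Male and female values had opposite signs in 7 of the 10 genes, against 69.1% of 12250 genes tested in both sexes. The test of the interaction passed for 3 of the 10 (Keap1 and Sod1 negative, Gclc positive), against 23.3% of all genes, and 7 of the 10 had an unadjusted p under 0.05 (36.5% of all genes).

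The sexes were then compared within each dam group, over the same libraries, so these values are not independent of those above. With air-exposed dams, Keap1 and Sod1 were higher in males and Nfe2l2 and Gclc higher in females, 4 of the 10 genes against 51.5% of all genes (25.5% higher and 26% lower in males; edgeR, adjusted p under 0.05). Keap1 stood at 34.6 to 48.6 CPM in males and 21.4 to 30.0 CPM in females, without overlap (log2 fold change 0.64 ± 0.13 SE, male over female, edgeR adjusted p = 0.000296). Sod1 stood at 502 to 710.0 CPM and 190.5 to 419 CPM, also without overlap (0.96 ± 0.16 SE, adjusted p = 3.23e-05). Groups that do not overlap were found in 26.7% of all genes in this comparison. For Nfe2l2 the value was -0.49 ± 0.15 SE (edgeR adjusted p = 0.0077) and for Gclc -0.44 ± 0.16 SE (0.0204), and the Gclc call was lost without male air replicate 1 or female air replicate 6 (0.0589 and 0.114). Within library set 1 alone Keap1 and Sod1 passed, and Nfe2l2 (-0.39, edgeR adjusted p = 0.117) and Gclc (-0.47, 0.0504) did not. Within set 2 alone Gclc did not pass (-0.40, 0.226) and the other 3 did. Txnrd1, which had not passed, did so without female air replicate 6 (0.39, edgeR adjusted p = 0.0187).

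With ozone-exposed dams 0 of the 10 genes differed between the sexes by the same edgeR test, against 5.76% of all genes (2.96% higher and 2.81% lower in males). At an unadjusted p under 0.05 there were 5 of the 10, against 18.3% of all genes. DESeq2 called 3 of the 10 (Nqo1, Hmox1 and Gclm) among 966 genes in all and limma-voom called 1 (Nqo1) among 760 in all, against 741 with edgeR. With edgeR, Nqo1 and Hmox1 passed without male ozone replicate 5 (adjusted p = 0.00924 and 0.00669), Nqo1 without female ozone replicate 1 (0.0410), and Hmox1 and Gclm without female ozone replicate 4 (0.0187 and 0.0230). The log2 fold change, male over female, was then -0.07 ± 0.13 SE for Keap1, -0.30 ± 0.16 SE for Sod1, 0.01 ± 0.15 SE for Nfe2l2 and 0.34 ± 0.16 SE for Gclc. None of the 10 genes had groups without overlap, against 3.8% of all genes. The sex difference of Keap1, Sod1 and Gclc thus changed with maternal exposure by the interaction given above, and for Nfe2l2 a change was not shown.

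Nqo1 and Hmox1 were lower in males when both dam groups were averaged, by -0.64 ± 0.17 SE (edgeR adjusted p = 0.00354) and -0.31 ± 0.10 SE (0.0179). Keap1 and Sod1 were higher in males (0.29 ± 0.09 SE, adjusted p = 0.0152, and 0.33 ± 0.11 SE, 0.0197), which is the average of a large difference with air-exposed dams and a small or opposite one with ozone-exposed dams. Within library set 1 alone none of these 4 passed, with -0.39 for Nqo1, -0.31 for Hmox1, 0.11 for Keap1 and 0.23 for Sod1 (edgeR adjusted p between 0.298 and 0.556). Within set 2 alone Hmox1 did not pass (-0.28, edgeR adjusted p = 0.0760) and the other 3 did. Nfe2l2 did not pass (-0.24 ± 0.10 SE, edgeR adjusted p = 0.0641), but did in 8 of the alternative settings (adjusted p between 0.0232 and 0.0487). In all, 4 of the 10 genes passed, against 45.6% of all genes (22.5% higher and 23.1% lower in males). For Nqo1 the value was negative in both dam groups, at -0.56 ± 0.24 SE and -0.72 ± 0.24 SE, and neither passed by itself (edgeR adjusted p = 0.0526 and 0.0818). With DESeq2 both passed (adjusted p = 0.0389 and 0.0484). In edgeR the first also passed with library totals only (0.0304) and with 8 of the 24 libraries left out in turn, which were male air replicate 4, male ozone replicates 3, 5 and 6, female air replicates 3 and 4, and female ozone replicates 1 and 6 (adjusted p between 0.0234 and 0.0486).

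**Figure D3:**
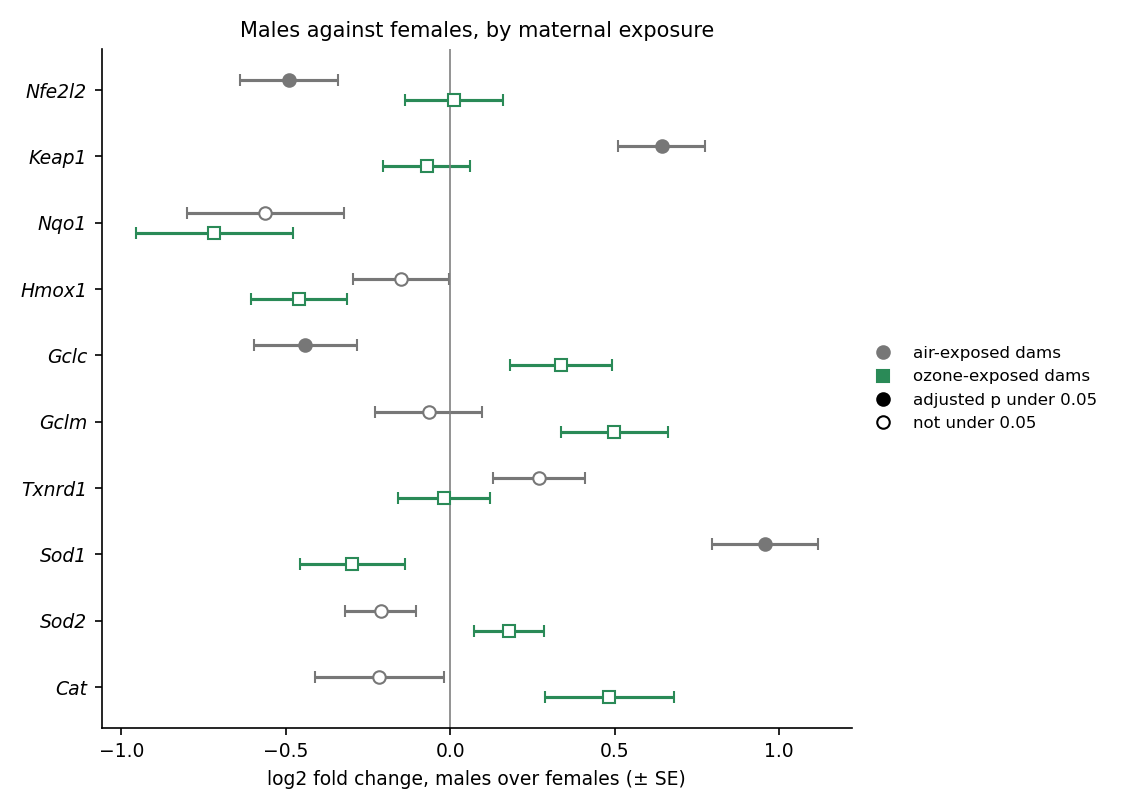
Log2 fold change of each gene between the sexes (x axis, ± SE; males over females, 6 against 6 libraries), with circles for air-exposed dams, squares for ozone-exposed dams and filled symbols for adjusted p under 0.05. With air-exposed dams Sod1 and Keap1 lie to the right and Nfe2l2 and Gclc to the left, and with ozone-exposed dams no symbol is filled.

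Ratios of 2 genes within a library do not depend on how libraries are scaled. They were compared for 3 pairs in each sex by two-sided exact permutation (924 arrangements of the animals), with p adjusted over the 6 tests. Unlike the edgeR tests of single genes, these tests had no term for library set. The log2 ratio of Sod2 to Sod1 (mitochondrial to cytosolic enzyme) was -2.64 ± 0.24 in the air group of males and -1.86 ± 0.57 in their ozone group (SD, 6 animals each; exact permutation p = 0.0108, adjusted 0.0303). Among females the order was opposite, -1.44 ± 0.52 against -2.36 ± 0.21 (p = 0.00649 by exact permutation, adjusted 0.0303). The male result was lost without air replicate 4 or 5 (adjusted p = 0.0606 for each). This ratio uses the same Sod1 counts as the tests of Sod1 above and is not independent of them. By itself neither Sod1 nor Sod2 passed in females with edgeR, where p was adjusted over all genes tested.

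The log2 ratio of Keap1 to Nfe2l2, repressor to factor, was -1.24 ± 0.24 and -1.80 ± 0.57 in males, a difference of -0.55 (exact permutation p = 0.0498, adjusted 0.0747; adjusted 0.00649 without ozone replicate 2). In females it was -2.36 ± 0.33 and -1.74 ± 0.38, a difference of 0.62 that passed (exact permutation p = 0.0152, adjusted 0.0303). That call was lost with 7 of the 12 females left out in turn, namely air replicates 2, 3 and 6 and ozone replicates 1, 3, 4 and 5. Neither gene passed by itself in females, where p was adjusted over all genes tested and not over these few ratios. How many other gene pairs would pass was not counted. The log2 ratio of Gclc to Gclm, the 2 subunits of 1 enzyme, was 1.46 ± 0.22 and 1.66 ± 0.25 in males (p = 0.182 by exact permutation, adjusted 0.218). Females had 1.84 ± 0.39 and 1.84 ± 0.33 (p = 0.974 by exact permutation, adjusted 0.974). Within library set 1 alone (3 against 2 animals) an exact p cannot go below 0.1. The Sod2 to Sod1 difference was 1.04 and 0.72 in males within sets 1 and 2, and -0.74 and -1.05 in females. The Keap1 to Nfe2l2 difference was -1.03 and -0.34 in males, and 0.51 and 0.72 in females.

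**Figure D4:**
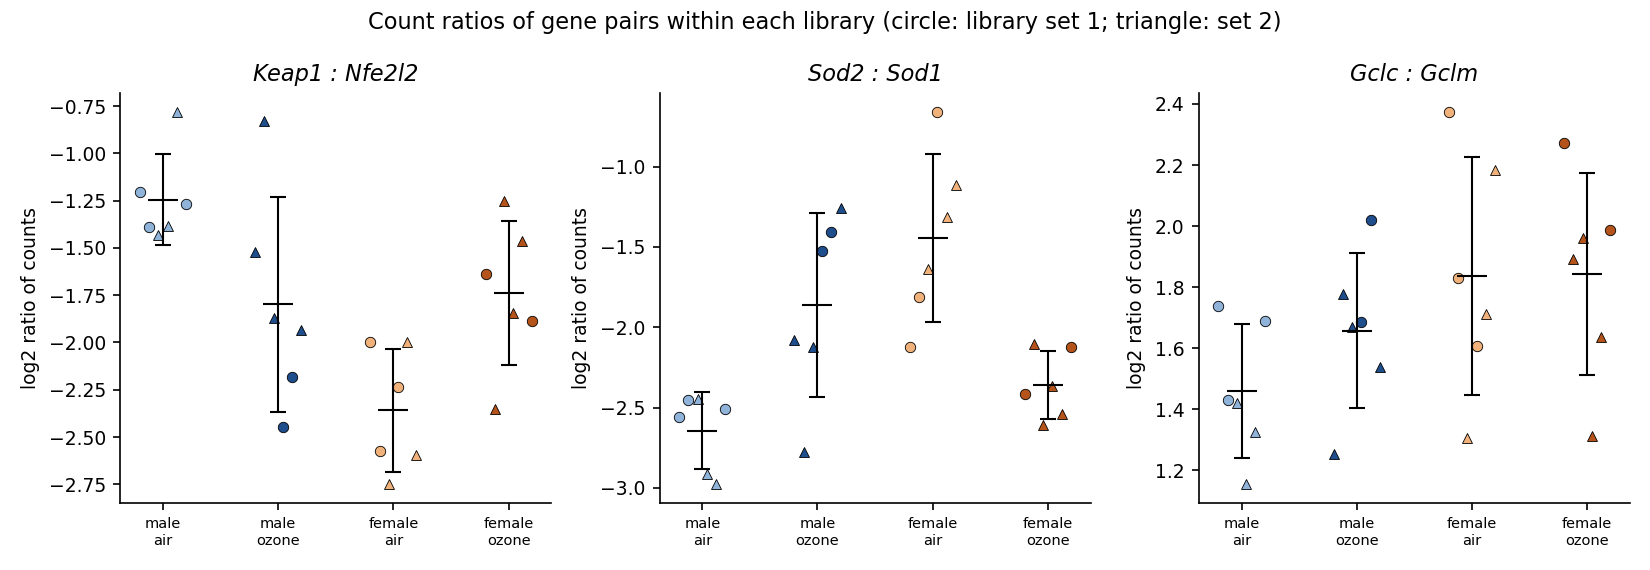
Log2 ratio of the counts of 2 genes within each library (y axis) for Keap1 to Nfe2l2, Sod2 to Sod1 and Gclc to Gclm in the 4 groups (x axis), with 1 point per library, circles for library set 1 and triangles for set 2, and bars for the mean ± SD of 6 libraries. The Sod2 to Sod1 ratio lies higher with ozone-exposed dams in males (-1.86 against -2.64) and lower in females (-2.36 against -1.44).

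Animals of 1 group also differed among themselves, and within groups Nfe2l2 varied together with Gclm. How many of all genes vary with Nfe2l2 to a like degree within groups was not counted. The relations below are thus not shown to be particular to these genes. After the group means were removed from log2 CPM, Nfe2l2 correlated with Gclm over the 24 libraries (Pearson r = 0.57, permutation p = 0.00378, adjusted over 6 relations 0.0227; Spearman rho = 0.67, p = 0.00069, adjusted 0.00414). Pearson r was positive in each of the 4 groups, between 0.37 and 0.94 (6 libraries each). It was 0.56 without the 2 libraries farthest from the median of Nfe2l2 (permutation p = 0.00393). Within library set 1 it was 0.51 (10 libraries, permutation p = 0.340) and within set 2 it was 0.68 (14 libraries, permutation p = 0.0136).

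For Gclc the relation with Nfe2l2 was of like size (r = 0.59, permutation p = 0.00925, adjusted 0.0277; rho = 0.52, p = 0.0192, adjusted 0.0571). By group, r was only 0.12 in males from air-exposed dams and between 0.65 and 0.69 in the other groups. Without the 2 farthest libraries r was 0.54 and no longer passed the adjustment (permutation p = 0.0261, adjusted 0.0784). It was 0.51 within set 1 and 0.64 within set 2 (permutation p = 0.0620 and 0.0464). Gclc and Gclm had an r of 0.48 (permutation p = 0.0304, adjusted 0.0608; rho = 0.47, p = 0.0286, adjusted 0.0571; r = 0.37 without the 2 farthest libraries) that did not pass. Txnrd1 (r = 0.30, permutation p = 0.194, adjusted 0.290; rho = 0.27, p = 0.211), Hmox1 (r = -0.16, permutation p = 0.532, adjusted 0.638; rho = -0.19, p = 0.410) and Nqo1 (r = -0.03, permutation p = 0.920, adjusted 0.920; rho = -0.04, p = 0.880) showed no relation with Nfe2l2 that passed. All these genes share the scaling of their library. With library totals in place of TMM scaling, r was 0.60 for Gclm and 0.64 for Gclc.

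**Figure D5:**
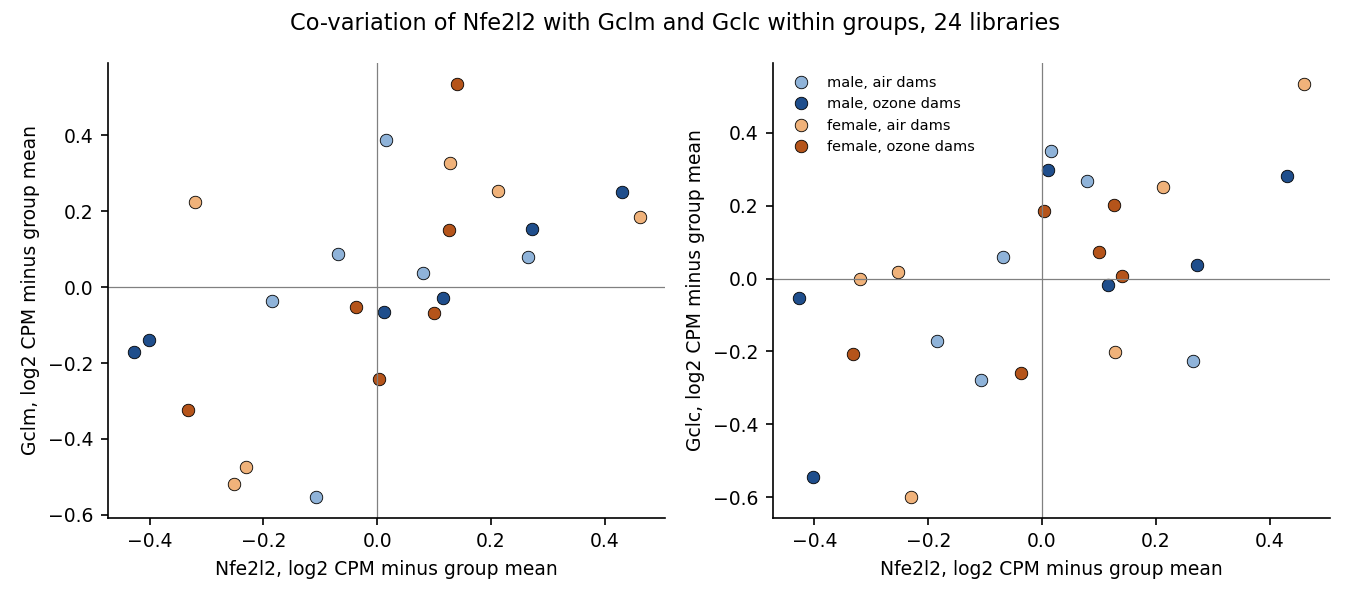
Log2 CPM of Gclm (left) and Gclc (right) against that of Nfe2l2, each minus the mean of its group, with 1 point per library and colours for the 4 groups of 6. Libraries with more Nfe2l2 than their group's mean tend to lie above 0 for both genes (r = 0.57 and 0.59).

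The genes whose levels followed Nfe2l2 and Nqo1 most closely over all 24 libraries, among 9331 genes with a mean count of at least 50, are known here by ID only. They were ENSRNOG00000046062 and ENSRNOG00000004492 for Nfe2l2 (both r = 0.83), and ENSRNOG00000002615 (r = 0.77) and ENSRNOG00000002035 (r = 0.72) for Nqo1. These r describe the 24 libraries, whose groups differ, and were picked as the highest.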

How the data were processed

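PolyA-selected liver RNA (RIN above 7, per the labels' protocols) of 24 rats was sequenced. The authors deposited estimated counts for 18056 Ensembl rat gene IDs, in 1 table per sex, and the values show no scaling by depth or length. In each library 74.4% to 81.3% of them were whole (tolerance 1e-09). The submitters' processing notes name Partek, STAR 2.6.1d, rn6 and DESeq2, without saying what each did. The annotation is not given in the sources used here, nor the strand setting, so reads of a gene and of one antisense to it may be mixed. The tables have 23 more columns, of libraries that fit no label of the 24, which were left out.

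Counts were rounded and tested with edgeR 4.0.16 in R 4.3.3: filterByExpr (minimum count 10, minimum total 15), TMM, robust quasi-likelihood test with library set as covariate, Benjamini-Hochberg adjustment over all genes tested, called under 0.05. Each sex was fitted by itself. All 24 libraries were fitted together for the interaction and the sex differences. SE is that implied by the test statistic. Log2 CPM used a prior count of 2. Correlations were tested with 100000 permutations within groups. Neither the correlations nor the ratio tests had library set as covariate. Alternatives were DESeq2 1.42.0, limma-voom (limma 3.58.1), RLE or no scaling, other filters, no robust option, no set term, a set term for each sex, either set by itself, males and females in a joint fit, and every library left out in turn. The fits were also run on data simulated with independent libraries and no effect of library set or litter. That run cannot show how the fits behave when littermates are present. Replicate pairs all differed beyond counting noise (chi-square per degree of freedom 21.8 to 127.6 over 60 pairs). The p-values measure the spread between these animals and not between dams, which received the maternal exposure. Littermates in male and female groups would also not be independent in the joint fit.

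All 10 genes are named. The 10 genes and the tests were chosen with earlier results of these data known. Of the 18056 IDs, 0 matched an Ensembl ID in the reference table (GRCr8), so the other pathway genes and the cell type markers listed for this work were not tested, and promoters were matched by symbol.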

Additional observations from a re-analysis of the deposited data

Results flagged for a closer look

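The maternal difference differed between the sexes, by the test of the interaction in edgeR, for 3 of the 10 genes. Over all 12854 genes 23.3% passed the same test, so the count is not shown to be particular to these genes. The difference, male minus female on the log2 scale, was -1.25 for Sod1 (adjusted p = 0.000806), -0.71 for Keap1 (0.00857) and 0.78 for Gclc (0.0133).

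A library stood apart from the other 5 of its group for 1 gene, Hmox1. Ozone replicate 5 among the males was at 49.9 CPM, with the next highest at 33.1 CPM. Air replicate 4 among the females was at 40.9 CPM, with the next highest at 33.4 CPM. Of 40 groups looked at (10 genes in 4 groups), chance alone would mark about 1 in 20. The cause was not tested.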

How the results depend on the processing

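The 4 male calls were made with DESeq2, limma-voom, RLE scaling, library totals only, both other filters, no robust option and all 24 libraries in 1 fit. Without the library set term 2 were made (Sod1 and Cat), in set 1 alone 3 (without Gclc) and in set 2 alone 0. Over all genes, too, fewer were called in males in either set alone than in both (counts in the next paragraph). The lost calls are thus not shown to be particular to these genes. The male count over all genes without the set term is not given here. The 3 interaction calls were made with every other tool, scaling and filter, without the robust option, without the set term and with a set term for each sex. Of the single sets, set 1 gave only Keap1 and set 2 only Sod1. Interaction calls over all genes were also fewer in either set alone than in both. In each sex set 1 alone has 3 against 2 animals (air-exposed against ozone-exposed dams) and set 2 alone 3 against 4. In males the larger set 2 gave fewer calls than set 1, and the cause was not tested.

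Counts of called genes moved in the sets alone. In set 1 and set 2 they were 861 and 121 in males (2670 with both), 9 and 0 in females (34), 432 and 450 for the interaction (2994), and 71 and 412 for the sex difference with ozone-exposed dams (741). In set 1 they were 899 for the averaged sex difference (5867) and 3404 for that with air-exposed dams (6621). In females DESeq2 gave 332, no library set term 66, and all 24 libraries in 1 fit 1. With 1 library left out, the counts ran from 1684 to 3740 in males, 0 to 135 in females, 2371 to 3793 for the interaction, 5462 to 6059 for the averaged sex difference, 6102 to 6816 with air-exposed dams and 554 to 769 with ozone-exposed dams.

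Signs turned for the following values, none of which had passed. Nqo1 in males was -0.0195 with limma-voom, -0.35 in set 2 and between -0.21 and 0.19 with 1 library left out, and its interaction was 0.23 in set 1. Hmox1 in males ran from -0.0137 to 0.26, Nqo1 in females from -0.0813 to 0.29 and Txnrd1 in females from -0.0273 to 0.24 with 1 library left out. For the sex difference with ozone-exposed dams, Nfe2l2 was -0.0147 with limma-voom, -0.0117 with library totals, -0.0757 in set 2 and -0.0904 to 0.0937 with 1 library left out. Keap1 was 0.0937 and Txnrd1 0.0309 in set 2 (Txnrd1 -0.0667 to 0.0760 with 1 left out). With air-exposed dams Gclm was 0.0556 in set 2 (-0.15 to 0.0270 with 1 left out). Of the averaged sex differences, Gclc was 0.0135 in set 1 (-0.11 to 0.0369 with 1 left out), Sod2 was 0.18 in set 1, 0.00811 with a set term for each sex and -0.0383 to 0.0235 with 1 left out, and Cat was -0.0328 in set 2.

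With 1 library left out, the maternal difference in log2 ratio ran from 0.66 to 0.96 (Sod2 to Sod1) in males and -1.05 to -0.76 in females, from -0.75 to -0.42 (Keap1 to Nfe2l2) in males and 0.52 to 0.74 in females, and from 0.12 to 0.28 (Gclc to Gclm) in males and -0.0974 to 0.12 in females. In set 2 the last was -0.0319. The Sod2 to Sod1 differences within sets 1 and 2 (1.04 and 0.72 in males, -0.74 and -1.05 in females) and those of Keap1 to Nfe2l2 in females (0.51 and 0.72) no longer passed. Within 1 set the few arrangements leave the exact test little or no room to pass, so this does not show that the differences were lost. With library totals, r with Nfe2l2 was 0.0246 for Nqo1 and 0.00328 for Hmox1, and Gclc with Gclm passed (r = 0.52). Without the 2 farthest libraries Nfe2l2 with Gclc had r = 0.54. No paired analysis was possible because the labels give no replicate numbers that groups share.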
